A study of Sus scrofa with 48 samples.

Results

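Interleukin 10 (IL10) is a cytokine that damps inflammation, and the genes described here are IL10 itself and the chain through which it signals: the receptor subunits IL10RA and IL10RB, the kinases JAK1 and TYK2, the transcription factor STAT3 and the feedback inhibitor SOCS3. The members were these 7 genes, and all probes that carried the name of one of them were taken, 26 of the 60305 different probes of the array. Of these, 3 probed IL10, 1 IL10RA, 2 IL10RB, 7 JAK1, 5 TYK2, 5 STAT3 and 3 SOCS3. All 26 were bright enough to be tested, and so were 6 further probes that carry a database entry of a member in place of its name, which were counted apart.

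Liver RNA came from 48 purebred Large White barrows, castrated male pigs, 1 pig per array. A total of 24 pigs belonged to a line selected for low residual feed intake (RFI), which is the part of feed intake not predicted from production needs, and 24 to a line selected for high RFI. Within each line, 12 pigs received ad libitum a diet rich in fat and fiber (HF) and 12 a diet poor in both (LF), so that the groups were HF low RFI, HF high RFI, LF low RFI and LF high RFI, all of the same age at sampling. The comparison of lines asks how liver expression differs with feed efficiency, and the comparison of diets how it differs with the source of dietary energy. Each line was a single selected population, so that all that differs between the 2 lines is held together in their comparison.

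Values are log2 intensities of a probe minus the median of its array, so that 0 is the typical tested probe and a difference of 1 is a doubling. Log2 FC is the difference between groups on this scale. A probe was called differentially expressed at P under 0.01 and a fold change (FC) over 1.1, and P-BH is the P after Benjamini-Hochberg adjustment over the 45236 tested probes. Median intensities of the arrays had a median of 73.1 scanner units and a maximum of 126, with 65.8% to 77.2% of probes well above background. The arrays lay on 6 slides, each with 2 arrays of every group, and were scanned on 2 days, each with 6 arrays of every group. Hepatocyte markers such as ALB and APOA1 were among the brightest probes (mean of 9 markers of 9.10 ± 0.11 in the low RFI line and 9.09 ± 0.15 in the high RFI line, SD, n = 24). The liver is also home to Kupffer cells, its resident macrophages, and in such bulk tissue fewer cells of a type and less RNA per cell cannot be told apart.

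IL10 is secreted mainly by macrophages and lymphocytes. It binds IL10RA, the subunit that confers affinity and is found mostly on leukocytes, and then recruits IL10RB, a widely expressed subunit that several cytokines of the family share. JAK1 docks on IL10RA and TYK2 on IL10RB. Together they activate STAT3, which enters the nucleus and induces genes that restrain inflammation, SOCS3 among them. In hepatocytes the same STAT3 is driven mainly by interleukin 6 and induces acute phase proteins.

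The probes are 60 bases long. The 3 IL10 probes start at different places and share no overlap, and their first 30 bases are shown because the agreement between them is the base of the results on IL10.
IL10 A_72_P185331: ctagaagcaattcaattcctctgggaatgt
IL10 A_72_P440601: aaccaaagaaaaaccttccaggatgacgac
IL10 O12249: gctgtggccagcttgttatttaaaacaacc
For IL10RB, the probe that stands for the gene is shown with capitals for the 57 bases that it shares with a further probe shifted by 3 bases.
IL10RB A_72_P441858: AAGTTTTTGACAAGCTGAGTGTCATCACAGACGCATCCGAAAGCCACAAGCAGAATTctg
The STAT3 probes did not move together between lines, so 3 of them are shown. Capitals mark the only base that differs over the 32 bases that A_72_P561986 and A_72_P669204 share (G53T, counted from the 5′ end of A_72_P561986).
STAT3 A_72_P349223: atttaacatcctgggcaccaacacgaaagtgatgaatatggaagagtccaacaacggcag
STAT3 A_72_P561986: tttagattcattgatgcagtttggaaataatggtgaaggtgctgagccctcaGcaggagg
STAT3 A_72_P669204: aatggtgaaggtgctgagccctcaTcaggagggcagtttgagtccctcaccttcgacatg
Of the 26 member probes, 8 shared a run of 20 bases, on either strand, with another probe of their own gene, and none did with a probe outside it.

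Of the 26 member probes, 6 (23.1%) were called between lines, while 6.91% of all tested probes were called. All 6 were under-expressed in low RFI pigs, the direction of 3.49% of all tested probes. They belonged to IL10 (3 of 3 probes), IL10RB (2 of 2) and STAT3 (1 of 5), that is 3 of the 7 genes. Among all genes, 9.28% had at least 1 called probe. These shares are not fully alike, because members have more probes per gene: 26 for 7 genes, against 20765 for 10593 genes. By the brightest probe, which stands for the gene, STAT3 was not called (log2 FC 0.07, limma P = 0.36). At a P-BH of 5%, 3 member probes were called, 2 of IL10 and 1 of IL10RB, against 3.93% of all probes. With any size of difference counted, 20 of the 26 probes were lower in the low RFI line, compared with 47.5% of all tested probes, and the median log2 FC was -0.07 for the members and 0.01 for all probes. The probes of a gene are not independent of each other, so these counts describe 7 genes.

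Between diets, 2 of the 26 member probes (7.69%) were called, both of them IL10 probes over-expressed with the HF diet, while 4.61% of all tested probes were called. None of the members was called between diets at a P-BH of 5% in limma, where 0.455% of all probes were. Not 1 member probe was called for the interaction of line and diet, 0 also at an unadjusted P under 0.05. Calls were rare among all tested probes too (0.376%), so this count does not set the members apart. Within the HF diet, 1 member probe was called between lines (3.41% of all probes), and within the LF diet 4 were (3.84% of all probes). These counts from 12 pigs per group depended on the setting: the probe within HF was no longer called in 10 of 16 alternatives, and the 4 within LF became 0 with the macrophage or the leukocyte mean as a covariate and on the first scan day alone, and 1 on the second.

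**Figure D1:**
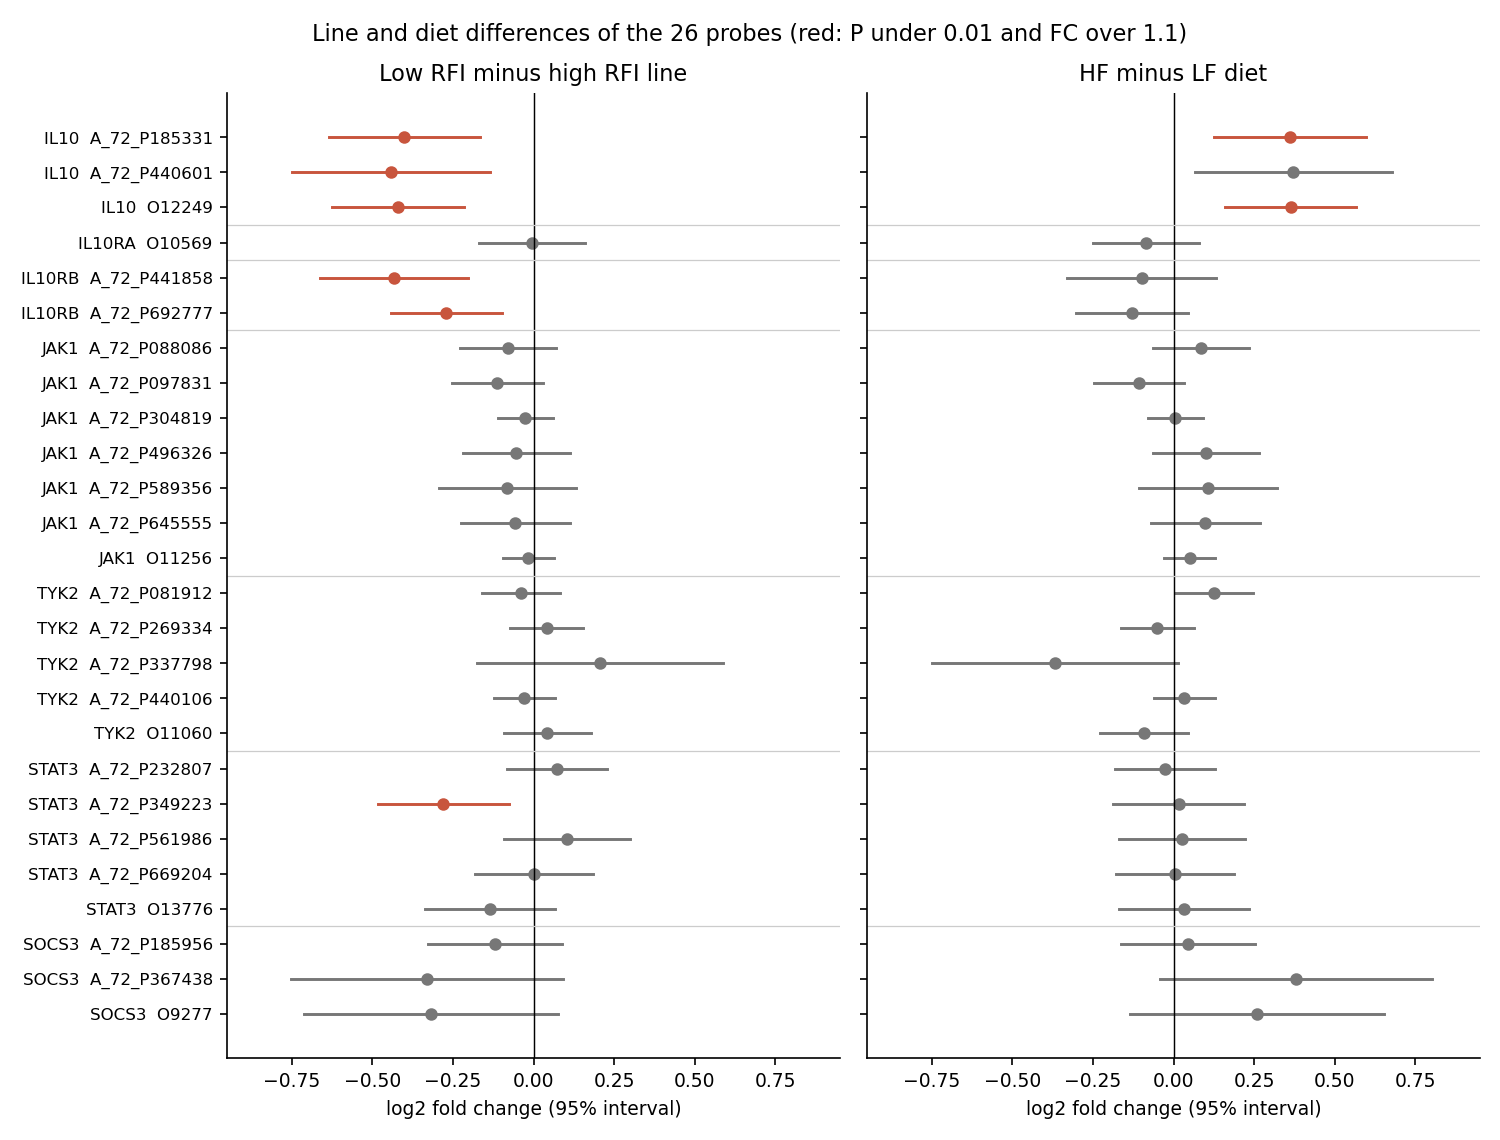
Log2 FC (points) with 95% intervals (lines) of the 26 probes, between lines on the left (low RFI minus high RFI) and between diets on the right (HF minus LF), with n = 24 pigs per line or diet. Called probes are red. The 3 IL10 probes lie near -0.4 between lines, all called, and near 0.37 between diets, where 2 were called. Both IL10RB probes and STAT3 A_72_P349223 were called between lines only, below 0.

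IL10, the ligand, was lower in low RFI pigs and higher with the HF diet, by about the same amount. With probe A_72_P185331, the brightest of the 3, values of the low RFI line ran from -1.65 over a median of -0.84 to 0.32, and those of the high RFI line from -1.19 over a median of -0.44 to 0.24. The lines overlapped over most of their range, yet only 4 of 24 low RFI pigs exceeded the high RFI median. The line means were -0.80 ± 0.47 and -0.39 ± 0.41 (SD, n = 24 each), a log2 FC of -0.40 (SE 0.12, limma P = 0.00128, P-BH = 0.0377), which is an FC of 1.32.

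Probe O12249 gave -1.70 ± 0.41 and -1.28 ± 0.38, a log2 FC of -0.42 (SE 0.10, limma P = 0.000136, P-BH = 0.00761). The dimmest probe, A_72_P440601, was well above background on 43 of 48 arrays, 20 in the low RFI line and 23 in the high RFI line, and the difference of -0.44 (SE 0.15, limma P = 0.0056) did not pass the adjusted threshold (P-BH = 0.0988). Between pigs of the same group, the 3 probes rose and fell together (r from 0.59 to 0.88 over 48 arrays). A further probe with the same 60 bases as A_72_P185331 differed from it with an SD of only 0.12, against an SD of 0.41 between pigs of a group, and had a log2 FC of -0.41.

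The diet difference of IL10 was 0.36 with A_72_P185331 (SE 0.12, limma P = 0.00342, P-BH = 0.137), with 20 of 24 HF pigs above the median of the LF pigs. It was 0.36 with O12249 (SE 0.10, limma P = 0.000795, P-BH = 0.0808) and 0.37 with A_72_P440601, which was not called (limma P = 0.0184). Group means of A_72_P185331 were highest in HF high RFI (-0.24 ± 0.30, SD, n = 12), then came LF high RFI (-0.55 ± 0.46) and HF low RFI (-0.59 ± 0.41), and LF low RFI was lowest (-0.997 ± 0.46). The middle groups could not be told apart: HF low RFI minus LF high RFI was -0.04, with a 95% interval from -0.37 to 0.29. The line difference was -0.36 within the HF diet and -0.44 within the LF diet, and the interaction of 0.09 had an interval from -0.38 to 0.56.

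Arrays of the first scan day alone gave a line log2 FC of -0.31 for A_72_P185331 (SE 0.17, limma P = 0.0723) and a diet log2 FC of 0.56 (limma P = 0.00268). On the second day alone, these values were -0.49 (limma P = 0.00535) and 0.16 (SE 0.16, limma P = 0.325), so the diet difference was called on the first day only. The second day minus the first was -0.17 for the line difference (SE 0.23, limma P = 0.46) and -0.40 for the diet difference (SE 0.23, limma P = 0.0895), and neither passed the test. This test of the scan days was added after the data were seen.

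**Figure D2:**
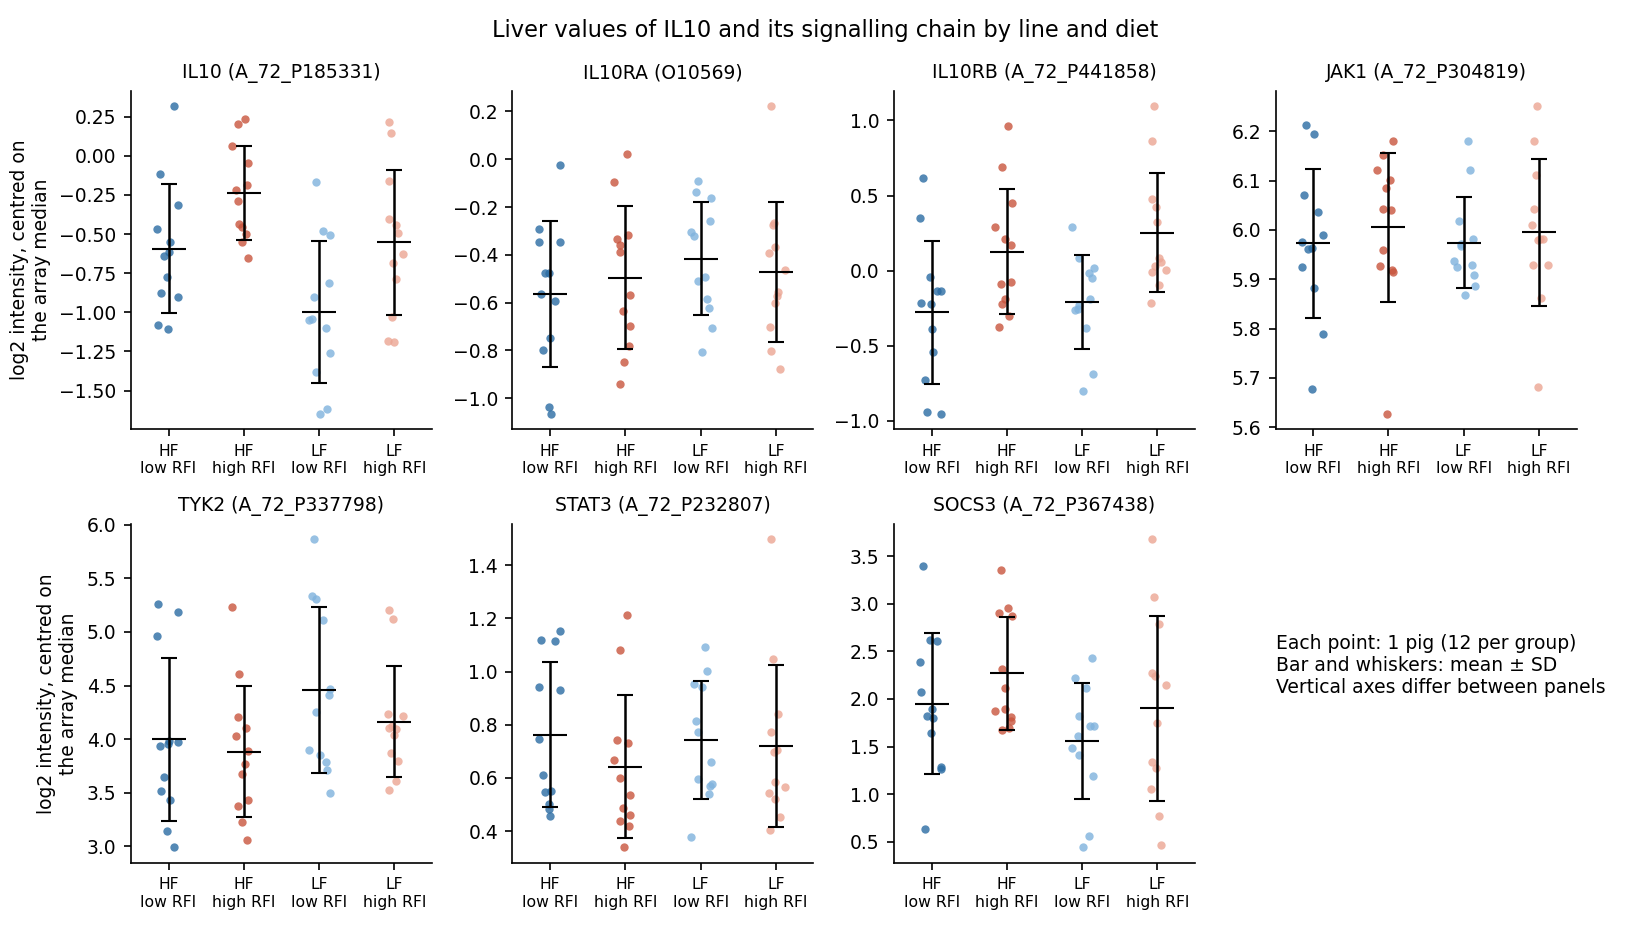
Values of the probe that stands for each of the 7 genes (vertical axis, log2 intensity minus the median of the array) in the 4 groups of 12 pigs. Points are pigs, and bars with whiskers are means with SD. Means of IL10 are ordered by line and by diet and those of IL10RB by line, with groups that overlap. Means of SOCS3 also run from 2.27 in HF high RFI to 1.56 in LF low RFI, but within a wide spread and with no call. The groups of the other genes overlap almost wholly.

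The 2 receptor subunits differed from each other. For IL10RB, the shared subunit, values of A_72_P441858 ran from -0.95 over a median of -0.22 to 0.61 in the low RFI line and from -0.37 over a median of 0.07 to 1.1 in the high RFI line. The highest values were those of high RFI pigs, although a low RFI pig reached 0.61, above most of the high RFI line. Of the 24 low RFI pigs, 20 did not reach the high RFI median. The means of -0.24 ± 0.39 and 0.19 ± 0.40 gave a log2 FC of -0.43 (SE 0.11, limma P = 0.000439, P-BH = 0.0179), an FC of 1.35.

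The other IL10RB probe, A_72_P692777, had a log2 FC of -0.27 (SE 0.09, limma P = 0.00289, P-BH = 0.0643), and the pair varied together between pigs (r = 0.87). The further probe that shares the capitals above gave -0.52 (limma P-BH = 0.00241). By scan day, the difference was -0.66 for A_72_P441858 on the first (SE 0.16, limma P = 0.000528) and -0.20 on the second (SE 0.14, limma P = 0.16), where it was not called. The days differed by 0.46 in this value (SE 0.22, limma P = 0.0432), which did not reach P under 0.01 (P-BH = 0.999). No diet difference was called for IL10RB (-0.10, 95% interval from -0.33 to 0.13, and -0.13). The diet difference of IL10 exceeded that of IL10RB by 0.46 (2-sided permutation test of the difference within arrays, 100000 resamples, P = 0.00133).

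IL10RA, the ligand-binding subunit, has 1 probe, O10569, whose values ran from -1.07 over a median of -0.48 to -0.03 in the low RFI line and from -0.94 over a median of -0.51 to 0.22 in the high RFI line. The lines lay on top of each other. The log2 FC was -0.01 with a 95% interval from -0.17 to 0.16, and that between diets was -0.09 with an interval from -0.25 to 0.08. The line difference of IL10RB was larger than that of IL10RA by 0.43 (2-sided permutation test with 100000 resamples, P = 0.00201), and that of IL10 was larger by 0.39 (P = 0.00456). Both comparisons with IL10RA rest on O10569 alone, with no second probe of the gene to check it. In all, 6 such differences between members were tested, and each had a P of at most 0.00456 after Benjamini-Hochberg adjustment over the 6. These pairs were chosen after their values were seen.

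Neither kinase was called. The 7 JAK1 probes had line log2 FCs from -0.11 to -0.02 and diet log2 FCs from -0.11 to 0.11. The brightest, A_72_P304819, ran from 5.68 over 5.97 to 6.21 in the low RFI line and from 5.63 over 6.0 to 6.25 in the high RFI line, the narrowest spread among the probes that stand for a member (SD 0.14 within groups). Its interval between lines, from -0.11 to 0.06, excludes a change as large as that of IL10RB, and IL10RB differed from JAK1 by 0.41 in its line difference (2-sided permutation test with 100000 resamples, P = 0.00148). Not all JAK1 probes followed each other between pigs: A_72_P097831 was negatively related to 4 of the others (r from -0.34 to -0.29), while the other 6 had r from 0.17 to 0.99.

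The 5 TYK2 probes had line log2 FCs from -0.04 to 0.21. Their diet log2 FCs ran from -0.37 (A_72_P337798, limma P = 0.0587) to 0.13 (A_72_P081912, limma P = 0.0443), and none was called. They did not vary as probes of 1 transcript would, with r between pigs from -0.46 to 0.59 and a median of -0.16. A_72_P337798, the brightest, ran from 2.99 over 3.96 to 5.86 in the low RFI line and from 3.06 over 4.04 to 5.24 in the high RFI line, and had an SD of 0.67 within groups, compared with 0.16 to 0.23 for the other 4. Its log2 FC of 0.21 had a 95% interval from -0.18 to 0.59. Which of these probes measures TYK2 cannot be told from the values, and no level of TYK2 is read from them.

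STAT3, the transcription factor on which the chain converges, was called with 1 of its 5 probes. A_72_P349223 ran from -0.39 over a median of 0.18 to 0.79 in the low RFI line and from -0.17 over 0.33 to 1.36 in the high RFI line. The lines thus differed by a log2 FC of -0.28 (SE 0.10, limma P = 0.00776, P-BH = 0.121), with 20 of 24 low RFI pigs under the high RFI median. O13776 gave -0.14, whereas A_72_P669204, A_72_P232807 and A_72_P561986 gave 0.00, 0.07 and 0.10, and none of these 4 was called. From the first scan day to the second, the line difference of A_72_P349223 changed by -0.44 (SE 0.20, limma P = 0.0288). That of O13776 also changed by -0.44 (SE 0.20, limma P = 0.0286), so both were more negative on the second day. Neither change reached P under 0.01 (P-BH = 0.999 for both).

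The line difference of A_72_P349223 was larger than that of the mean of the other 4 probes by 0.29 (2-sided permutation test within arrays, 100000 resamples, P = 0.0001). The contrast was not tested by scan day, and A_72_P349223 was chosen after its values were seen, as the lowest of the 5. All the same, the STAT3 probes rose and fell together between pigs (r from 0.51 to 0.93). A_72_P561986 and A_72_P669204, which share 32 bases but for 1, correlated at 0.93, with line log2 FCs of 0.10 and 0.00. The brightest probe, A_72_P232807, ran from 0.38 over 0.70 to 1.15 and from 0.34 over 0.59 to 1.5, and its log2 FC of 0.07 had an interval from -0.08 to 0.23. Compared with that probe, the line difference of IL10 was larger by 0.47 (2-sided permutation test with 100000 resamples, P = 8e-05). Between diets, the 5 probes lay within 0.03 of 0.

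SOCS3, which STAT3 induces and which blocks the kinases of several cytokine receptors, varied more between pigs than any other member. A_72_P367438 ran from 0.44 over a median of 1.76 to 3.40 in the low RFI line and from 0.46 over 2.0 to 3.68 in the high RFI line. The pigs with the lowest values were alike in both lines. The means of 1.76 ± 0.69 and 2.09 ± 0.81 differed by -0.33 (SE 0.21, limma P = 0.12), with an interval from -0.75 to 0.09, so that a difference as large as that of IL10 was not detectable against this spread. The diet difference of 0.38 was not called either (SE 0.21, limma P = 0.0755). O9277 gave nearly the same values between pigs (r = 0.99) and a line log2 FC of -0.32. A_72_P185956 was dim (means of -2.89 and -2.78) and followed the others less closely (r of 0.45 and 0.48). A further SOCS3 probe shares 30 bases with A_72_P185956 but hardly followed it (r = 0.15). It was dim too (means of -3.27 and -3.05), with a line log2 FC of -0.22 that was not called (SE 0.08, limma P = 0.0114).

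Once group means were removed, the probes that stand for the genes were compared between pigs, over 48 arrays that also share RNA quality and labelling. STAT3 (A_72_P232807) went with IL10RA at r = 0.54, with SOCS3 at 0.48, with IL10 at 0.46 and with IL10RB at 0.34. With JAK1 the sign turned with the JAK1 probe, from 0.33 with A_72_P304819 to -0.32 with A_72_P645555. SOCS3 went with IL10RB at 0.51 and with IL10 at 0.41. IL10 was related to its 2 receptor subunits at 0.36 (IL10RB) and 0.16 (IL10RA), and the subunits to each other at 0.19. The TYK2 probes differed here too: with IL10, A_72_P337798 had an r of 0.09 and A_72_P081912 one of -0.42.

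**Figure D3:**
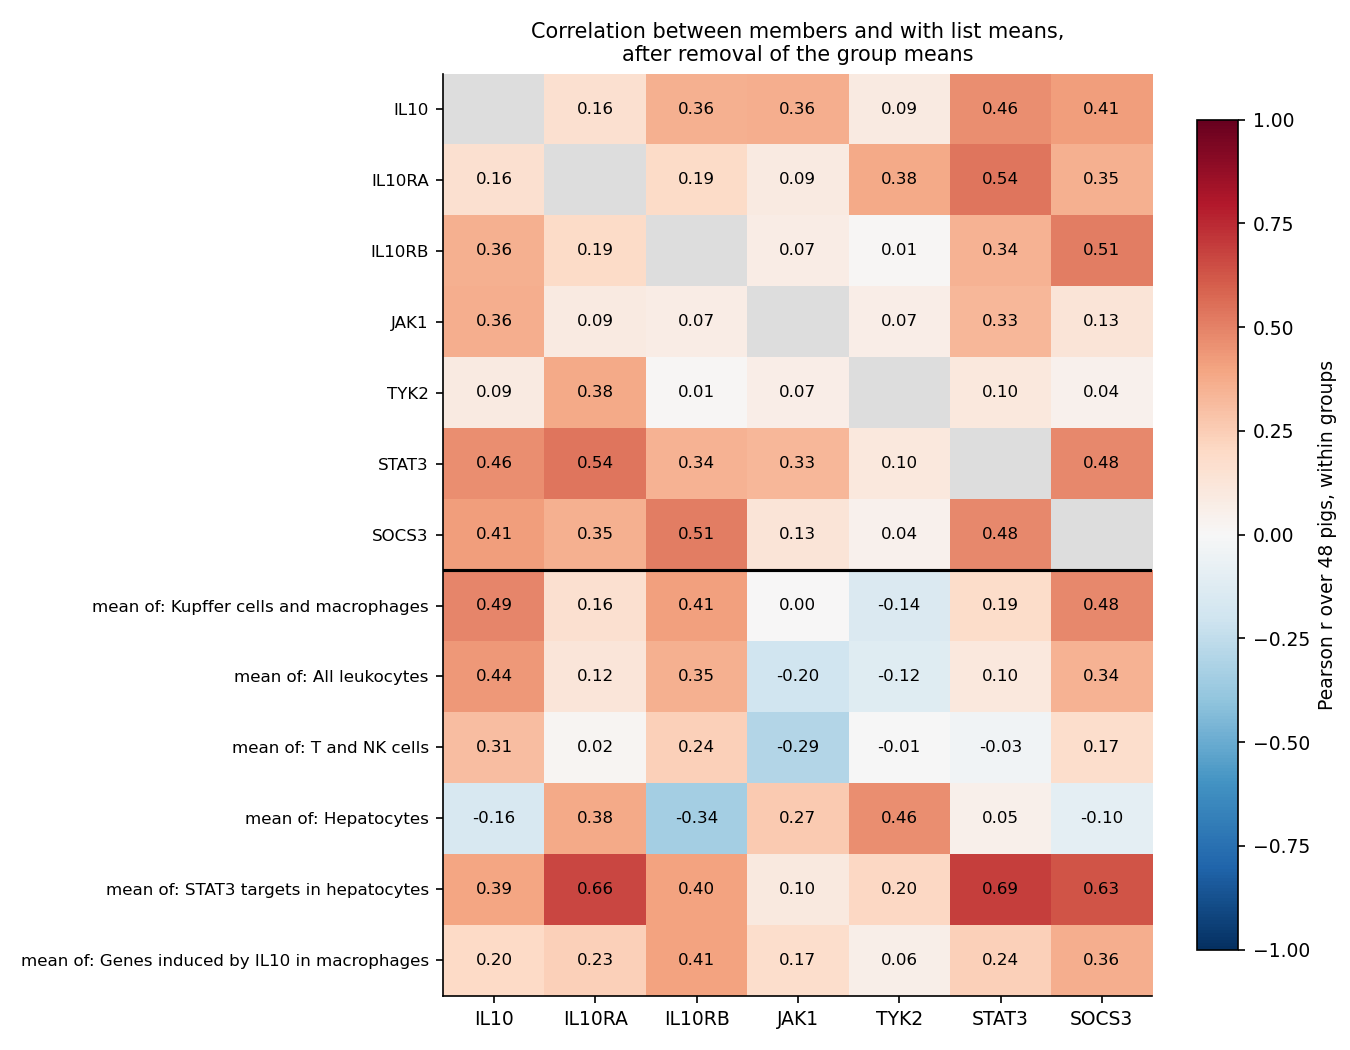
Pearson r between pigs after removal of the group means (n = 48), for the 7 members with each other (upper block) and with the mean of 6 gene lists (lower block). Red is positive and blue negative: STAT3, IL10RA and SOCS3 are related to the STAT3 targets of hepatocytes, and IL10 and SOCS3 to macrophage markers.

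Over 10592 other genes, each member was set beside the 3 genes whose values were most like its own between pigs. For IL10 they were CCR1, a chemokine receptor of macrophages and other leukocytes (r = 0.59), ZC3H12C (0.56) and CLIC1 (0.56). IL10RB was most like TMEM165 (0.61), TLR2, a receptor for bacterial lipoproteins (0.59), and GNA12 (0.59). IL10RA was most like WWC3 (0.82), TGM2 (0.78) and ITGB8 (0.78). JAK1 was most like DYNC1LI2 (0.73), HAGHL (0.69) and PNPLA8 (0.65), and STAT3 like STK19 (0.72), GPR126 (0.70) and QSOX1 (0.69). SOCS3 was most like IFNAR1, a subunit of the receptor for type I interferons (0.67), GRRP1 (0.64) and the complement component C5 (0.64). The TYK2 probe followed SEMA3B, WDR4 and ENY2 at 0.89 each.

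The genes around the chain were read from lists, with 1 probe per gene, beside 3.36% of all 10593 genes called lower and 3.41% called higher in the low RFI line. Between diets, 2.02% of all genes were called higher and 2.17% lower with the HF diet. Among 11 other tested genes of JAKs, STATs and receptors of the interleukin 6 family, JAK2, a kinase of many cytokine and hormone receptors, was over-expressed in the low RFI line (log2 FC 0.15, SE 0.04, limma P-BH = 0.0307, 2 of 3 probes called). It was the only one called, and the list median was -0.01. None of 13 inhibitors of the pathway, such as SOCS2, CISH, PIAS1 and PTPN6, was called by the probe that stands for it (list median 0.01), while SOCS4 (1 of 4 probes), PTPN1 (1 of 5) and PTPN11 (1 of 3) had a called probe among the others. Of the other ligands and receptors of the IL10 family, 0 of 10 were tested.

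Of 13 genes known to be induced by IL10 in macrophages, BCL3, a nuclear partner of NF-kappaB, was lower in the low RFI line (log2 FC -0.33, SE 0.12, limma P-BH = 0.125), and none was higher. The list median was -0.18, compared with 0.01 for all genes, and was the value of CD163, also a macrophage marker. MERTK, a receptor for the uptake of dying cells, was higher with the HF diet (0.36, SE 0.11, limma P-BH = 0.113). CCR1 itself had a log2 FC of -0.22 between lines that was not called (limma P = 0.0176), while the other of its 2 probes was.

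Of 15 inflammatory genes that IL10 is known to repress, 1 was called lower and 1 higher in the low RFI line by the probe that stands for it. The list median was -0.13, the value of CCL5, for which another probe was called (1 of 3). CD40, a costimulatory receptor of antigen-presenting cells, was lower (log2 FC -0.25, SE 0.09, limma P-BH = 0.0984), with all 4 of its probes called. CCL3L1, a chemokine of macrophages, was higher (0.54, SE 0.08, limma P-BH = 3.71e-05) with 1 of its 2 probes. CXCL2 (-0.64, SE 0.25, limma P = 0.0144), CXCL10 (-0.50, SE 0.22, limma P = 0.0271), TNF (0.10) and IL1B (-0.13) were not called.

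Of 15 STAT3 targets in hepatocytes, 2 were lower in the low RFI line and none was higher (list median -0.10). APCS, the serum amyloid P component, fell by 0.92 (SE 0.24, limma P-BH = 0.0138, 2 of 2 probes called), and CEBPB, a transcription factor of the acute phase, by 0.29 (SE 0.11, limma P-BH = 0.12). Fibrinogen chains FGA, FGB and FGG (0.11, 0.16 and 0.12) and haptoglobin, HP (0.01), were not called. Nor were SAA3 (-0.71, SE 0.31, limma P = 0.026), HAMP (-0.67, SE 0.49), LBP (-0.52, SE 0.24, limma P = 0.0364) and CRP (-0.22, SE 0.27), whose standard errors were wide. The mean of these 15 targets went with STAT3 (r = 0.69), IL10RA (0.66) and SOCS3 (0.63) between pigs, and less with IL10 (0.39) and IL10RB (0.40).

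**Figure D4:**
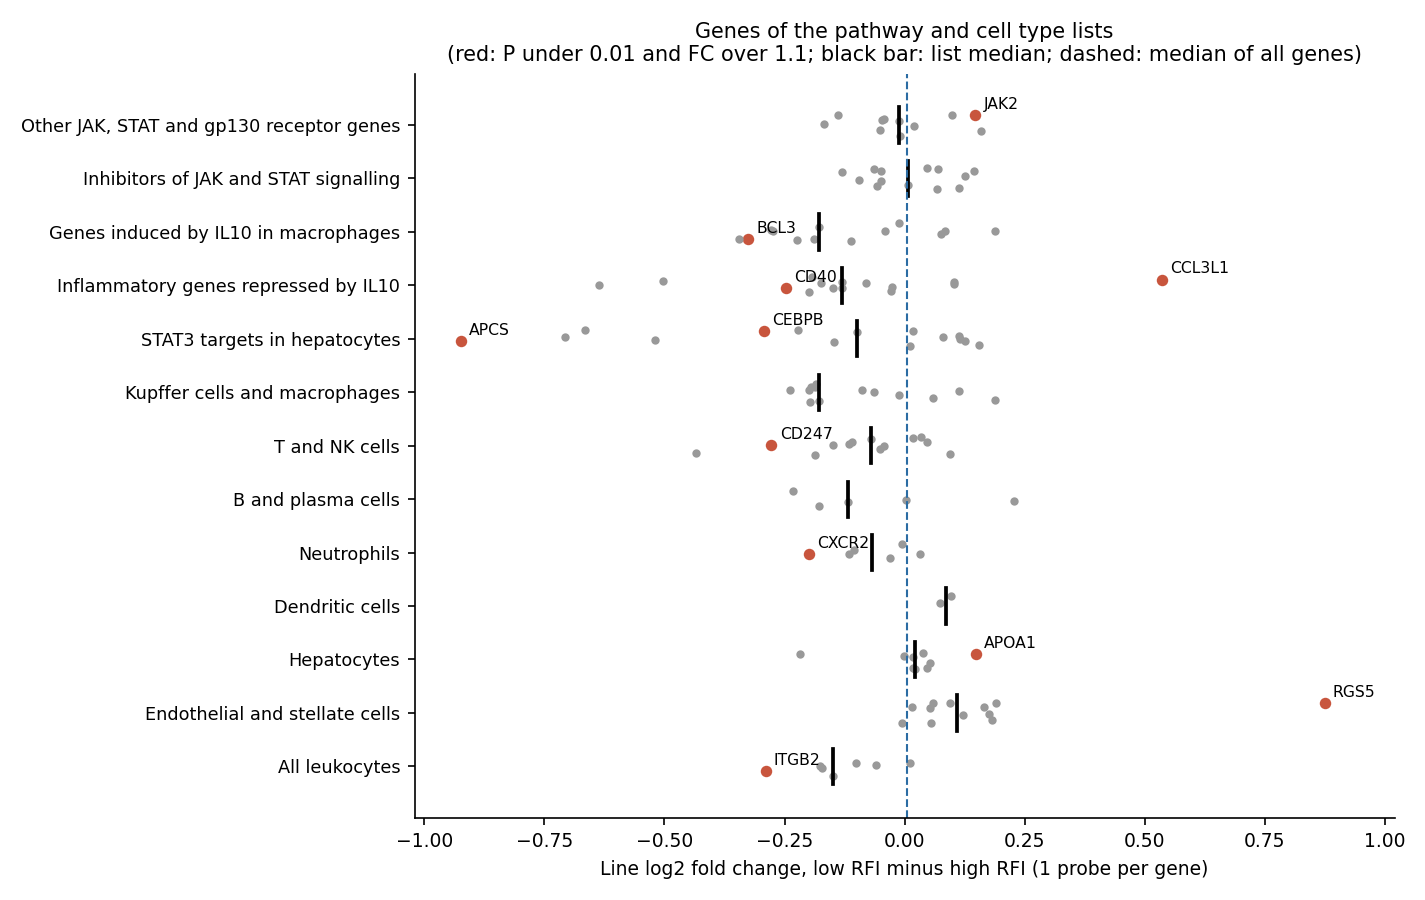
Line log2 FC (horizontal axis, low RFI minus high RFI, n = 24 pigs per line) of the tested genes of each list, 1 point per gene. Black bars are list medians, the dashed line is the median of all genes, and named red genes were called: lists of macrophages and of genes induced by IL10 have medians of -0.18 (CD163, which is in both lists, is the median gene of each), and those of hepatocytes (0.02) and of endothelial and stellate cells (0.11) lie above 0.

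Markers of the cells that make or answer IL10 were read in the same way. None of 13 tested markers of Kupffer cells and macrophages was called by the probe that stands for it, and their median log2 FC was -0.18, again that of CD163. Other probes were called for VSIG4 (2 of 7), C1QA (1 of 2) and AIF1 (1 of 3). CSF1R, the receptor on which macrophages depend, had -0.24 (limma P = 0.0102), VSIG4 and AIF1 had -0.20, while CD5L (0.11) and MRC1 (0.19) pointed the other way, and CD68 (-0.09) and CD14 (0.06) were near 0. The Kupffer cell markers MARCO, TIMD4 and ADGRE1 were not tested. The mean of the 13 ranged from 3.06 to 4.03 in the low RFI line (3.61 ± 0.22) and from 3.32 to 4.09 in the high RFI line (3.70 ± 0.21). It was 3.69 ± 0.20 with the HF diet and 3.62 ± 0.23 with the LF diet.

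Of 7 genes of all leukocytes, ITGB2, a chain of leukocyte integrins, was lower in the low RFI line (log2 FC -0.29, SE 0.10, limma P-BH = 0.0828), and their mean ranged from 2.97 to 4.05 (3.46 ± 0.31) against 3.31 to 4.05 (3.60 ± 0.21). Among 13 markers of T and NK cells, CD247, the zeta chain of the T cell receptor, was lower in the low RFI line (-0.28, SE 0.10, limma P-BH = 0.123) and higher with the HF diet (0.40, SE 0.10, limma P-BH = 0.0493), with all 3 probes called between lines. No other marker of this list was called by the probe that stands for it. The list medians were near 0, at -0.07 between lines and -0.01 between diets. The mean of these markers was 0.26 ± 0.30 in the low RFI line and 0.35 ± 0.24 in the high RFI line. Of 6 markers of neutrophils, CXCR2 was lower (-0.20, limma P-BH = 0.11), and of 5 markers of B and plasma cells none was called. Of 12 markers of endothelial and stellate cells, RGS5, a gene of pericytes, was higher in the low RFI line (0.87, SE 0.26, limma P-BH = 0.0384), and the mean of the 12 was 2.43 ± 0.16 in the low RFI line and 2.26 ± 0.20 in the high RFI line. APOA1 was higher among 9 hepatocyte markers (0.15, limma P-BH = 0.121). Of 2 dendritic cell markers, XCR1 was lower with the HF diet (-0.27, limma P-BH = 0.127).

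IL10 was related to the macrophage mean at r = 0.49 and to the leukocyte mean at 0.44 between pigs, and IL10RB at 0.41 and 0.35. The 1 probe of IL10RA was related to these means at only 0.16 and 0.12, and to the hepatocyte mean at 0.38. With the macrophage mean as a covariate, the line log2 FC was -0.31 for IL10 (SE 0.11, limma P = 0.0048, P-BH = 0.0893) and -0.36 for IL10RB (SE 0.11, limma P = 0.00167, P-BH = 0.0457). With the leukocyte mean, it was -0.31 (limma P = 0.00748, P-BH = 0.123) and -0.36 (limma P = 0.00242, P-BH = 0.0611), and with the mean of T and NK markers -0.36 and -0.40. Both genes stayed called at P under 0.01 with each covariate, while the number of member probes called between lines was 3 with the macrophage mean and 3 with the leukocyte mean instead of 6. The diet log2 FC of IL10 was 0.29 (limma P = 0.00816) and 0.32 (limma P = 0.00503) with these means. The macrophage mean holds CD163 and MRC1, which are also in the list of genes induced by IL10. Whether the lines differ in cell number was not tested. These covariates were added after the data were seen.

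In the order of genes along the chromosome in the reference table of Sscrofa11.1, the 10 nearest tested genes of each member were looked at. Over all 10593 genes, with 1 probe per gene, 3.36% were called lower and 3.41% higher in the low RFI line. Whether neighbours of members were called more often than other genes was not tested. Of those of IL10, 3 were lower in the low RFI line. PIGR, the nearest tested gene on one side and the receptor that carries IgA across epithelia, had a line log2 FC of -0.52 (SE 0.15, limma P-BH = 0.0399) and a diet log2 FC of 0.57 (SE 0.15, limma P-BH = 0.0694), with both of its probes called for both. Its group means had the order of those of IL10, with 4.84 in HF high RFI, 4.23 in HF low RFI, 4.18 in LF high RFI and 3.74 in LF low RFI, save that the middle groups traded places. Within groups, however, PIGR and IL10 were unrelated between pigs (r = -0.06). CD55, an inhibitor of complement, had -0.39 (limma P-BH = 0.101) and SRI -0.43 (limma P-BH = 0.00175).

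None of the 10 neighbours of IL10RB was called between lines, although they include the interferon receptor subunits IFNAR2 (-0.02), IFNAR1 (-0.19) and IFNGR2 (-0.01). Of the neighbours of STAT3, 3 were called: MLX was lower (-0.48, limma P-BH = 0.00267), and PSMC3IP (0.25) and ATP6V0A1 (0.15) were higher. ICAM3, next to TYK2, was lower (-0.35, limma P-BH = 0.00516), and no neighbour of IL10RA, JAK1 or SOCS3 was called between lines.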

How the data were processed

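Liver RNA of 48 pigs was labelled with Cy3 and hybridized to Agilent porcine arrays, 1 pig per array. The authors deposited scanner output, in which each spot has intensities (mean, median, background, and a background-subtracted value) and flags, which are codes of other kinds, not normalized between arrays. The deposited log2 values equal the log2 median intensity minus a constant per array (largest SD of the difference 2.24e-07) and cover 24 of the 26 member probes; the submitters' processing notes name R 2.10.0. Neither a genome build nor an annotation version is given in the sources used here.

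Here, background-subtracted intensities were used without control spots and 483 outlier spots, as log2 minus the array median over the probes that 12 or more arrays showed well above background. A model with line, diet and interaction was fitted to all 45236 probes with limma 3.58.1 in R 4.3.3 (prior degrees of freedom 2.8), on intervals of 95%. In simulated data of 24 against 24 arrays, 81% of 200 probes changed by 0.4 (log2) were called, and 0.87% of unchanged ones. The changed probes were picked at random from all tested probes, with noise independent between probes. The share is thus an average over probes and not that of a given member. Members, lists, named genes and tests were chosen with earlier results of these data known. The named genes were all members with all their probes, up to 4 called genes of each list with the largest log2 FC, and the 3 genes most like each member; genes with no call, neighbours of members and pairs of members in permutation tests were singled out after their values were seen. The brightest tested probe on average stood for a gene. Accessions were matched to symbols for 6966 probes through the reference table of Sscrofa11.1. Alternatives were an ANOVA without moderated variances (the methods' test), other centrings, backgrounds, filters, blocks and probes. Promoters and protein sequences were not used here. The number of arrays limits the precision.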

Additional observations from a re-analysis of the deposited data

How the results depend on the processing

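The count of 6 member probes called between lines fell to 2 on the first scan day alone (with 1 gene called) and to 3 on the second, and to 3 with the macrophage or the leukocyte mean as a covariate. The 2 probes called between diets became 1 with normexp background correction, 1 with the deposited log2 values and 0 on the second scan day alone. The 1 probe called within HF became 0 with the ANOVA, 75th percentile centring, quantile normalization, normexp, no filter, the filter on all arrays, scan day as a block, the second day alone, the deposited values and the T and NK mean, and 2 with the median intensity. Within LF, 4 probes became 0 on the first day alone, 1 on the second, and 0 with the macrophage or leukocyte mean. The count for the interaction was 0 throughout. The line log2 FC ranged from -0.49 to -0.29 for IL10 and from -0.66 to -0.20 for IL10RB, and each lost its call in 1 of 19 alternatives, a single scan day of 24 arrays. STAT3 reversed from 0.07 to -0.28 when its probe with the smallest P stood for it. No paired analysis was possible because the replicate numbers here were given in accession order within groups and pair no animals. Dim probes are limited by signal over background, and a difference in SOCS3 by its spread between pigs.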
